A study of Mus musculus with 8 samples.

Results

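The genes described here are the 10 that encode the D-type cyclins (Ccnd1, Ccnd2, Ccnd3), their kinases (Cdk4, Cdk6), the retinoblastoma or pocket proteins (Rb1, Rbl1, Rbl2) and the E-type cyclins (Ccne1, Ccne2). They were picked by gene symbol in the annotated expression table, where each of the 10 had at least 1 of 12 probe sets, among 30918 genes in all. A gene with several probe sets is represented by its brightest, which concerns Rb1 alone, and all 3 probe sets of Rb1 are given. RNA came from multipotent progenitors of mouse bone marrow, sorted as Lin- Sca-1+ c-Kit+ CD48- CD150- cells, with 1 Affymetrix array per sample. The 4 Elektra arrays are from mice homozygous for the elektra allele of Slfn2 (Slfn2 elektra/elektra), a germline loss-of-function allele present in every cell of the animal. The 4 WT arrays are from littermates with the genotype Slfn2 wt/wt. Both groups had a C57Bl/6 background and were left untreated, and the labels used here give no age. Per the labels' protocols each sample combined marrow from 2 mice, whereas the series text counts 4 mice for each genotype, so the number of animals is not settled. The comparison asks how transcript levels in untreated progenitors differ when Slfn2 function is lost.

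In G1, mitogen signals raise D-type cyclins, which bind CDK4 or CDK6 and phosphorylate the pocket proteins. Unphosphorylated pocket proteins hold E2F factors in a repressive state, and their release allows transcription of E-type cyclins and S phase genes. Cyclin E then activates CDK2 and extends the phosphorylation. In blood stem and progenitor cells the circuit is known for setting how readily quiescent cells enter the cycle, with CDK6 associated with exit from quiescence. Slfn2 is known as a gene that T cells and monocytes need to stay quiescent.

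Values are log2 expression as deposited, normalised by the authors with RMA, a method that corrects background, equalises arrays and summarises probes. A difference of 1 is a doubling of signal. Each gene has its own probes, so placing a gene among all genes by signal, as with bright, dim or the median level, is only a rough description and no test. In these bulk samples, fewer cells of a type and less RNA per cell cannot be told apart. Slfn2, the mutated gene, had log2 values of 2.13, 2.12, 1.99 and 2.18 in Elektra arrays 1 to 4, against 2.06, 1.68, 2.44 and 2.16 in WT arrays 1 to 4. The groups overlap fully, and its level cannot check the labels, since the allele is known as a coding change.

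Over the 34390 probe sets, array medians were 2.02 to 2.13 and pairwise correlations 0.966 to 0.988. Elektra replicate 2 stood apart, at 3.63 for the upper quartile where the other 7 arrays had 3.80 to 3.83. Its score on the leading component, which held 28.7% of the variance, was -62.0, and the others had 2.72 to 16.6. Genes of the sort gate were bright, with Kit at 8.97 ± 0.13 in Elektra and 9.16 ± 0.09 in WT, and Ly6a, which encodes Sca-1, at 9.27 ± 0.16 in Elektra and 8.91 ± 0.36 in WT (log2, SD, n = 4 each). Slamf1, which encodes the excluded CD150, was dim at 1.80 ± 0.35 in Elektra and 1.66 ± 0.34 in WT. Cd48, the other excluded marker, was 4.01 ± 0.16 in Elektra and 3.85 ± 0.36 in WT, at percentile 75.4 of all genes. All 5 T cell markers lay below the median level of all genes, as did 5 of 6 mast cell and basophil markers. Signal of other marrow cells was present in both groups. Ighm, the immunoglobulin heavy chain gene, was 6.59 ± 1.17 in Elektra and 6.93 ± 0.49 in WT, and the mean level of 10 neutrophil and myeloid precursor genes ranged from 2.77 to 3.74 in Elektra arrays and from 2.84 to 4.52 in WT arrays. The part of these cells in the results below was not tested.

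None of the 10 genes passed the test between genotypes. In limma, fitted over all 30918 genes, 0 members had an adjusted p under 0.05, and 0% of all genes did. At an unadjusted p under 0.05, 2 of the 10 (20%) were found, Rb1 and Rbl2, both lower in Elektra, where 5.5% of all genes were found. Counted by direction, 2.87% of all genes were found lower and 2.63% higher. All 10 lie above the median level, and among such genes 7.34% had an unadjusted p under 0.05, 4.75% lower and 2.58% higher. By direction, 5 members had higher and 5 had lower mean values in Elektra. Their median log2 change was 0.01, equal to the median of 0.01 over all genes, of which 46.1% were lower. The Elektra and WT arrays overlapped for every member, while 3.23% of all genes had separate groups. Over all genes, 814 of the 1702 with an unadjusted p under 0.05 were higher in Elektra, and 452 of 1725 after centring each array on its median.

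**Figure D1:**
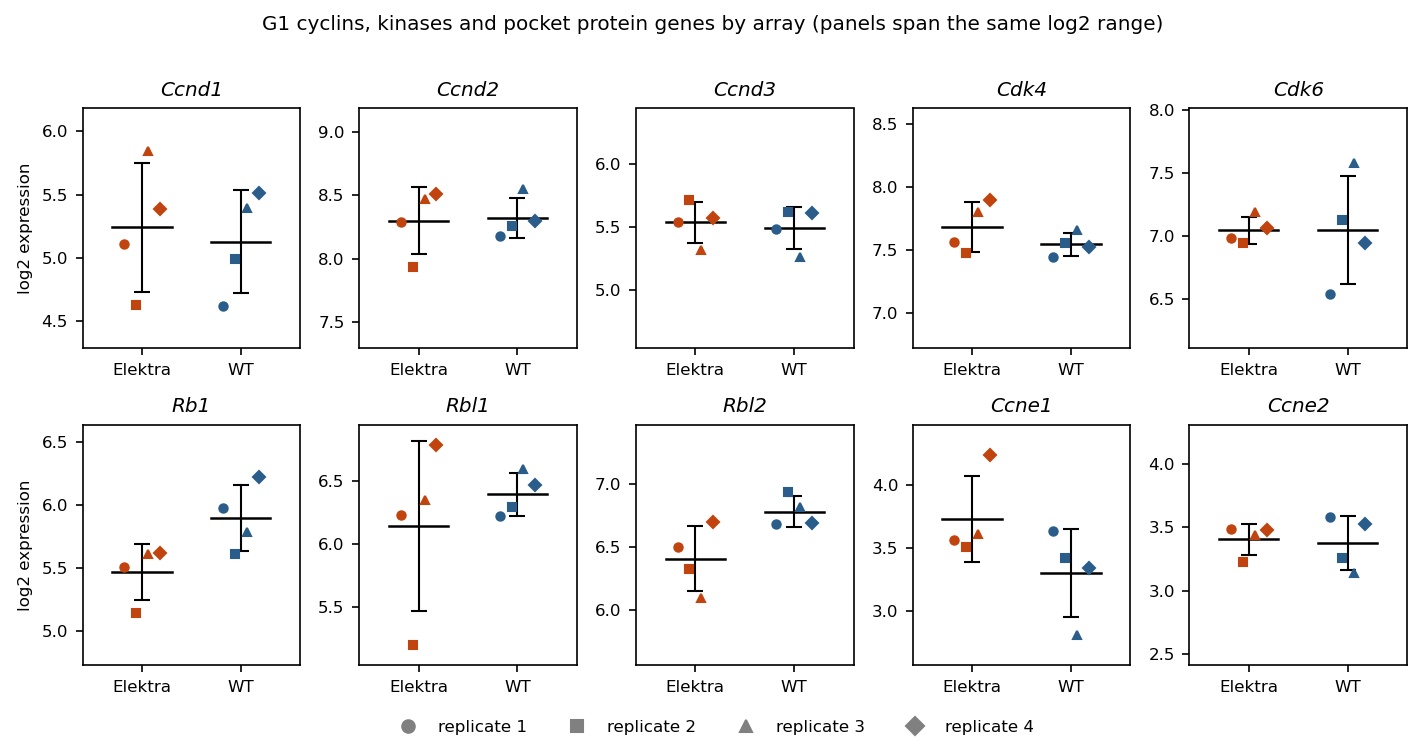
Log2 expression of the 10 genes (vertical axis, each panel spanning the same range) in the 4 Elektra arrays (left, orange) and the 4 WT arrays (right, blue), with marker shape giving the replicate number, the line the mean and the bar the SD. Rb1 and Rbl2 sit lower in most Elektra arrays, Rbl1 has 1 low Elektra array at 5.19, and no panel shows groups without overlap.

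**Figure D2:**
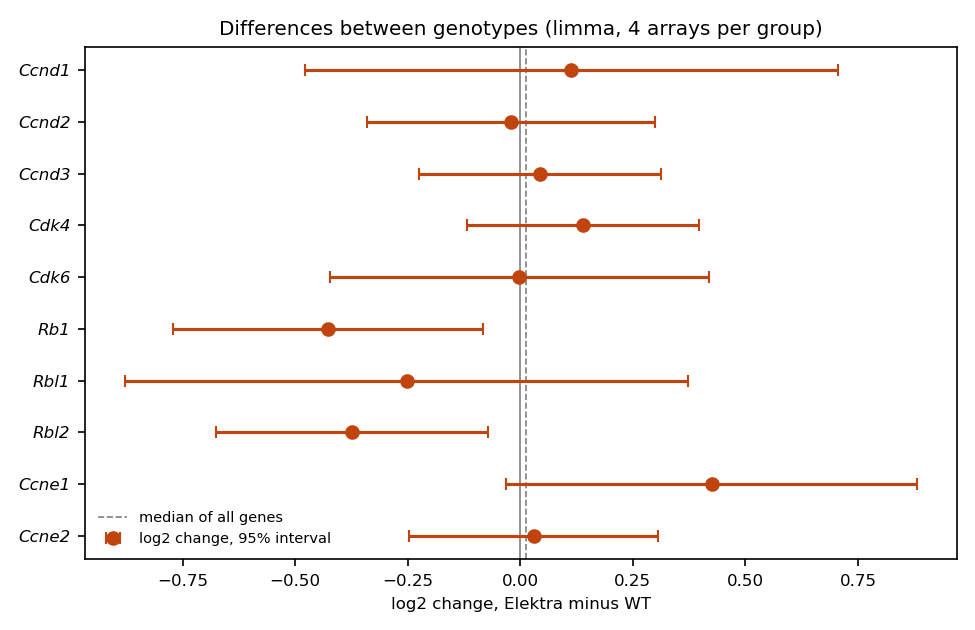
Log2 change, Elektra minus WT, of each gene (points) with its 95% interval from limma (bars), the solid line marking 0 and the dashed line the median of all genes, 0.01. Only the unadjusted intervals of Rb1 and Rbl2 exclude 0, and none of the 10 genes passed after adjustment over all genes.

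None of the 3 D-type cyclin genes, whose products carry mitogen signals to the cycle, passed the test. Ccnd1 encodes cyclin D1. Its log2 values were 5.11, 4.63, 5.85 and 5.38 in Elektra arrays 1 to 4, against 4.62, 4.99, 5.40 and 5.51 in WT arrays 1 to 4. The highest value was Elektra replicate 3 and the lowest were WT replicate 1 and Elektra replicate 2, so the spread within each genotype exceeded the gap between them. Elektra differed by a log2 change of 0.11 with 95% limits of -0.48 and 0.70 (limma adjusted p = 0.962), an interval that spans 0.717-fold to 1.63-fold. In both genotypes the arrays numbered 3 and 4 were higher than those numbered 1 and 2, a grouping for which the labels give no meaning.

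Ccnd2, the cyclin D2 gene, varied less. It had 8.29, 7.93, 8.47 and 8.51 in Elektra arrays 1 to 4, against 8.18, 8.26, 8.55 and 8.29 in WT arrays 1 to 4 (log2). Elektra replicate 2 alone lay below all WT arrays, and the other 3 Elektra arrays lay within the WT range. The log2 change of -0.02 had a 95% interval from -0.34 to 0.30 (limma adjusted p = 0.989), which spans 0.790-fold to 1.23-fold. Without Elektra replicate 2 the log2 change was 0.10.

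Cyclin D3 is encoded by Ccnd3. Its log2 values were 5.54, 5.71, 5.32 and 5.57 in Elektra arrays 1 to 4, against 5.48, 5.62, 5.26 and 5.61 in WT arrays 1 to 4. Here Elektra replicate 2 was the highest array of all, and replicate 3 was the lowest array of both genotypes. The log2 change was 0.04 with 95% limits of -0.22 and 0.31 (limma adjusted p = 0.969), and it turned to -0.02 without Elektra replicate 2.

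The 2 kinases that pair with D cyclins did not pass either. Cdk4 had log2 values of 7.56, 7.48, 7.80 and 7.90 in Elektra arrays 1 to 4, against 7.44, 7.56, 7.66 and 7.53 in WT arrays 1 to 4. Elektra replicates 3 and 4 lay above all WT arrays and the other 2 Elektra arrays within the WT range. The log2 change of 0.14 (95% interval -0.12 to 0.40, limma adjusted p = 0.898) kept its sign on leaving out each array, with values of 0.07 to 0.21.

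Cdk6 was matched in mean and unequal in spread. It had 6.99, 6.94, 7.19 and 7.06 in Elektra arrays 1 to 4, against 6.55, 7.13, 7.58 and 6.94 in WT arrays 1 to 4 (log2). All 4 Elektra arrays lay within the WT range, which was set by WT replicate 1 at the bottom and WT replicate 3 at the top. The group values were 7.05 ± 0.11 in Elektra and 7.05 ± 0.43 in WT (SD, n = 4 each), and the difference in spread was not tested. Between genotypes the log2 change was -0.0021 with 95% limits of -0.42 and 0.42 (limma adjusted p = 0.999), or 0.746-fold to 1.34-fold.

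The pocket protein genes had lower mean values in Elektra, Rb1 and Rbl2 whichever array was left out and Rbl1 unless Elektra replicate 2 was. The promoters of Rbl1 and Rbl2 are shown because pocket proteins act through E2F factors and because Rbl1 is known as an E2F target gene. Rb1 had no entry among the promoter windows used. Windows of 300 bases, from 250 before to 50 from the start site on, were taken from RefSeq (build GRCm38.p6) for Rbl1, Rbl2 and Ccne1, the last as the member with the largest positive difference. They are written 5′ to 3′ on the gene's strand. Capitals mark a match to 1 of the 4 E2F octamers TTTCCCGC, TTTGGCGC, TTTCGCGC and TTTGCCGC in Rbl1 and to the cell cycle homology region hexamer TTTGAA in Rbl2, searched on both strands.
Rbl1 (chr2:157204485-157204784, minus strand): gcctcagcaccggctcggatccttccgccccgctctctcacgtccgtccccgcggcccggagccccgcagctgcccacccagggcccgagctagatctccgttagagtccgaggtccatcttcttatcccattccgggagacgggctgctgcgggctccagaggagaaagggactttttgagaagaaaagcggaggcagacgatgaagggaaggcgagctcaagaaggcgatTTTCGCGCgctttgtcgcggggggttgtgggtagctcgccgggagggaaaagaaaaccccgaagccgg
Rbl2 (chr8:91069807-91070106, plus strand): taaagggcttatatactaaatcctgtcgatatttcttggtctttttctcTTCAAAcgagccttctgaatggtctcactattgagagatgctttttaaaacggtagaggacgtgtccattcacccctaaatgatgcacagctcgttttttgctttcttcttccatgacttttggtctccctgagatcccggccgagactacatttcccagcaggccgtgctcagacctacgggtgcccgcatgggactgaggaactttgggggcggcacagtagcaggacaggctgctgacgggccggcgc
Ccne1 (chr7:38107441-38107740, minus strand): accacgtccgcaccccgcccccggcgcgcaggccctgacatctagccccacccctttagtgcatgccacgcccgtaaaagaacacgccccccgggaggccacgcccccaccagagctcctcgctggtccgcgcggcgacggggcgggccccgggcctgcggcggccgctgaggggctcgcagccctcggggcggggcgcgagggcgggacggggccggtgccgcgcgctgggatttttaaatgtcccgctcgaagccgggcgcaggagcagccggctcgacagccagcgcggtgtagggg
The Rbl1 octamer TTTCGCGC begins 18 bases before the start site, and no other match of either kind overlaps it. At least 1 of the 4 octamers was found in 744 of 32851 promoter windows of the same length (2.27%), and in 1 of the 6 members with an entry (Ccnd3, Cdk4, Cdk6, Rbl1, Rbl2 and Ccne1). The hexamer in Rbl2 lies on the opposite strand at position -201 from the start site, and was found in 17.9% of the windows. A match is a description of the letters and not a binding site.

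Rb1 encodes the retinoblastoma protein itself. At its brightest probe set the log2 values were 5.51, 5.15, 5.61 and 5.62 in Elektra arrays 1 to 4, against 5.98, 5.61, 5.79 and 6.22 in WT arrays 1 to 4. Elektra arrays 1 and 2 lay below all WT arrays, while Elektra replicates 3 and 4 were level with WT replicate 2, so the groups met at their edges. Means were 5.47 ± 0.22 in Elektra and 5.90 ± 0.26 in WT (SD, n = 4 each). The log2 change was -0.43 (SE 0.15, 95% interval -0.77 to -0.08), or 0.744-fold. The unadjusted limma p was 0.0201, rank 661 among all genes, and the adjusted p was 0.884. Each of the 4 Elektra arrays was below the WT mean. Without Elektra replicate 2 the log2 change was -0.32, with an unadjusted limma p of 0.0531, and without WT replicate 4 it was -0.32, with an unadjusted limma p of 0.0605.

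The other 2 Rb1 probe sets had low signal, at percentiles 50.7 and 30.3 of all annotated probe sets. Probe set 17308600 had log2 values of 1.97, 1.90, 1.98 and 2.28 in Elektra arrays 1 to 4, against 2.98, 2.05, 1.93 and 1.88 in WT arrays 1 to 4. A single array, WT replicate 1, stood above the rest, and the other 3 WT arrays lay among the Elektra arrays or just below them. Its log2 change of -0.18 (95% interval -0.68 to 0.33, limma adjusted p = 0.928 over 31872 probe sets) turned to 0.08 without WT replicate 1.

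Probe set 17308568, at percentile 30.3, had 1.62, 1.39, 1.37 and 1.23 in Elektra arrays 1 to 4, against 1.65, 1.35, 1.65 and 1.72 in WT arrays 1 to 4 (log2). WT replicate 2 lay among the Elektra arrays and Elektra replicate 1 just under the other WT arrays. Here the log2 change was -0.19 (95% interval -0.45 to 0.08, limma adjusted p = 0.891). All 3 probe sets thus had lower means in Elektra, 0 of them passed (0% of all probe sets did), and averaging them per gene gave a log2 change of -0.26 for Rb1 (limma adjusted p = 0.886). The files used here do not say which exons or transcripts each probe set covers.

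**Figure D3:**
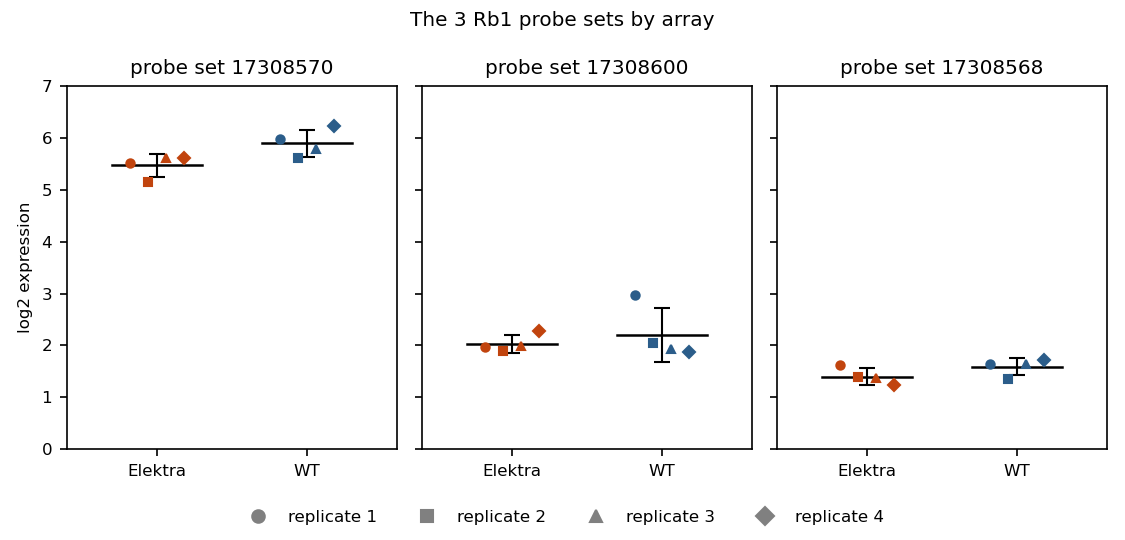
Log2 expression (vertical axis) at the 3 Rb1 probe sets in the 4 Elektra arrays (left in each panel, orange) and the 4 WT arrays (right, blue), with the mean (line) and SD (bar). The brightest probe set differs by -0.43 in log2 change, while the pair of dim ones differ by -0.18 and -0.19, the first of these resting on WT replicate 1 at 2.98.

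Rbl2 encodes p130, the pocket protein known to predominate in quiescent cells. Its log2 values were 6.51, 6.33, 6.10 and 6.70 in Elektra arrays 1 to 4, against 6.68, 6.94, 6.82 and 6.69 in WT arrays 1 to 4. Elektra arrays 1, 2 and 3 lay below all WT arrays, and Elektra replicate 4 was level with the lowest WT arrays. Means were 6.41 ± 0.26 in Elektra and 6.78 ± 0.12 in WT (SD, n = 4 each). The log2 change was -0.37 (SE 0.14, 95% interval -0.68 to -0.07), or 0.772-fold, with an unadjusted limma p of 0.0204, rank 672 among all genes, and an adjusted p of 0.884. Unlike Rb1, the lowest array was Elektra replicate 3, and without it the log2 change was -0.27, with an unadjusted limma p of 0.0588. Without WT replicate 2 the log2 change was -0.32, with an unadjusted limma p of 0.0596.

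Rbl1 encodes p107, the pocket protein known to accumulate in cycling cells. It had 6.23, 5.19, 6.35 and 6.79 in Elektra arrays 1 to 4, against 6.22, 6.29, 6.59 and 6.47 in WT arrays 1 to 4 (log2). Elektra replicate 2 lay far below every other array and Elektra replicate 4 above every other array. The log2 change of -0.25 (95% interval -0.88 to 0.37, limma adjusted p = 0.914) became 0.06 without Elektra replicate 2. The lower mean of Rbl1 in Elektra therefore rests on 1 array.

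Other measures also differed in mean between genotypes beside Rb1 and Rbl2. Long-term stem cell markers were lower in Elektra for 6 of 7 genes (median log2 change -0.15, 0 called), with a mean level of 4.26 to 4.42 in Elektra arrays and 4.42 to 4.55 in WT arrays, groups that met at 4.42, and none of the 7 was below the median level of all genes. Among bright genes in general, 735 were lower and 399 higher at an unadjusted p under 0.05, and without Elektra replicate 2 these counts were 483 lower and 580 higher. Flt3, the gene of a cytokine receptor on multipotent progenitors, averaged 7.09 ± 0.16 in Elektra and 7.43 ± 0.07 in WT. The part of these in the values of Rb1 and Rbl2 was not tested.

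Neither E-type cyclin gene, whose products activate CDK2 at the G1/S boundary, passed the test. Ccne1 had log2 values of 3.56, 3.51, 3.61 and 4.24 in Elektra arrays 1 to 4, against 3.64, 3.42, 2.82 and 3.35 in WT arrays 1 to 4. Elektra replicate 4 stood above all other arrays and WT replicate 3 below them, while the remaining 6 arrays lay between 3.35 and 3.64 with the genotypes mixed. The log2 change was 0.43 (SE 0.20, 95% interval -0.03 to 0.88), or 1.34-fold, with an unadjusted limma p of 0.0645 and an adjusted p of 0.884. Without Elektra replicate 4 it was 0.26 (limma adjusted p = 0.871), and without WT replicate 3 it was also 0.26 (limma adjusted p = 0.915). Without WT replicate 1 it was 0.54, with an unadjusted limma p of 0.0320 (adjusted p = 0.966), and without Elektra replicate 2 it was 0.50, with an unadjusted limma p of 0.04995 (adjusted p = 0.936).

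Ccne2, the cyclin E2 gene, had 3.49, 3.22, 3.44 and 3.48 in Elektra arrays 1 to 4, against 3.58, 3.26, 3.14 and 3.53 in WT arrays 1 to 4 (log2). All 4 Elektra arrays lay within the WT range. Its log2 change was 0.03 with 95% limits of -0.25 and 0.31 (limma adjusted p = 0.984), or 0.843-fold to 1.24-fold.

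Across arrays, the members did not vary as 1 block. Elektra replicate 2 was the lowest Elektra array for 8 of the 10 genes, the exceptions being Ccnd3, where it was highest, and Rbl2. No share over all genes was computed beside this count, and the array was also set apart over all probe sets, with an upper quartile of 3.63. The upper quartiles of the other arrays were 3.80 to 3.83. Elektra replicate 2 was the lowest of all 8 arrays for Ccnd2, Rb1 and Rbl1, with deviations from the gene mean of -0.38, -0.54 and -1.07 in log2. Elektra replicate 4 deviated upward by 0.72 for Ccne1 and 0.52 for Rbl1, and WT replicate 3 downward by -0.70 for Ccne1 and upward by 0.53 for Cdk6.

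**Figure D4:**
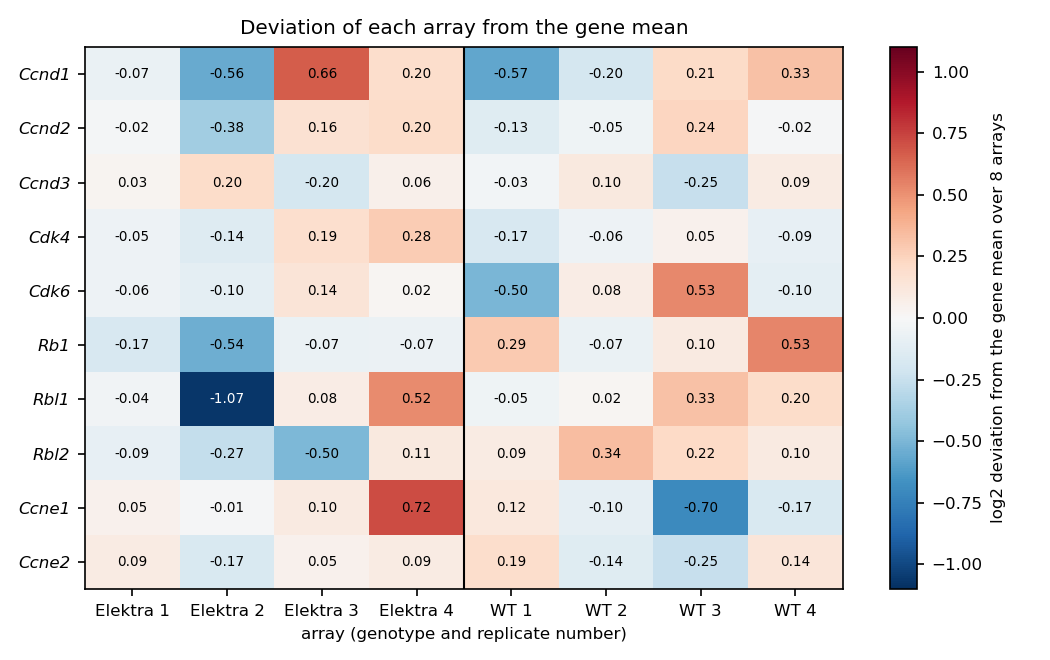
Deviation of each array from the gene's mean over 8 arrays, in log2 units (colour and printed number), for the 10 genes (rows) in the 4 Elektra and 4 WT arrays (columns). Elektra replicate 2 is low for Rbl1 at -1.07 and for Ccnd1 at -0.56, and high for Ccnd3 at 0.20.

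Likeness of pattern was measured as the root mean square difference between 2 genes' centred log2 values over the 8 arrays. The measure depends on amplitude as well as shape, so 2 genes that vary little are close whatever their shape. Among members, Ccnd2 and Cdk4 were closest to each other at 0.118, and Ccnd2 was also the closest member to Ccnd1 (0.276), Cdk6 (0.211) and Rbl1 (0.286). Their own root mean square deviations were 0.404 for Ccnd1, 0.190 for Ccnd2, 0.150 for Cdk4, 0.270 for Cdk6 and 0.444 for Rbl1. Ccnd3 and Ccne2 lay 0.196 apart, more than their own deviations of 0.145 and 0.151, so a flat line would be closer to either. Among 12206 named genes above the median level, the closest to each D cyclin gene were Psmg1 for Ccnd1 (0.0984), Twistnb for Ccnd2 (0.0477) and Aamp for Ccnd3 (0.0556). For the kinase genes they were Jagn1 for Cdk4 (0.0285) and Gtpbp10 for Cdk6 (0.0916). For the pocket protein genes they were Fcna for Rb1 (0.0775), Uxt for Rbl1 (0.0795) and Fer for Rbl2 (0.107), and for the E cyclin genes Prr11 for Ccne1 (0.185) and Smyd3 for Ccne2 (0.0582). These are descriptions over 8 arrays that share their quality and normalisation.

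Genes that regulate the circuit, work with it or are acted on by it were looked at from lists. No gene of these lists passed the test over all genes, in either direction. Of 10 E2F factors and dimer partners, 6 were higher in Elektra and 4 lower, and the median log2 change was 0.11 against 0.01 over all genes, and -0.05 without Elektra replicate 3. E2f5, which pairs chiefly with p130, had values of 4.02, 3.83, 4.00 and 3.92 in Elektra arrays 1 to 4, against 4.19, 4.27, 4.10 and 4.06 in WT arrays 1 to 4. Its groups did not overlap, as for 3.23% of all genes, and its log2 change was -0.21 (limma adjusted p = 0.884). E2f6 followed at -0.24, and E2f4 and E2f2 had log2 changes of 0.18 and 0.21 in limma.

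Among 7 CDK inhibitor genes, 4 were higher and 3 lower (median log2 change 0.06, and -0.02 without Elektra replicate 2 or -0.03 without WT replicate 3). Cdkn2a, which encodes p16 and p19Arf, had 2.62, 2.83, 2.71 and 2.64 in Elektra arrays 1 to 4, against 2.33, 2.53, 2.58 and 2.50 in WT arrays 1 to 4 (log2). Its groups were separate, as for 3.23% of all genes, with a log2 change of 0.21 (limma adjusted p = 0.884). Cdkn1c (-0.14), Cdkn2d (-0.11) and Cdkn1a (0.10) had smaller log2 changes.

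Of 11 other kinases and regulators of G1/S, 8 had lower means, with a median log2 change of -0.11, or 0.01 without Elektra replicate 2. Cdk2, the partner of cyclin E, was 5.63 ± 0.36 in Elektra and 5.83 ± 0.23 in WT, and Cdc25a, a phosphatase that activates it, was 4.48 ± 0.24 in Elektra and 4.68 ± 0.26 in WT (log2, SD, n = 4 each). Mycn (-0.15) and Wee1 (-0.13) had smaller log2 changes. The 6 MuvB and DREAM genes, for the MuvB core that joins p107 or p130 in a repressor complex and for its later activator partner B-MYB (Mybl2), were split with 3 higher and 3 lower (median log2 change 0.03, and -0.13 without Elektra replicate 4). Rbbp4 (-0.13), Lin37 (0.08), Mybl2 (0.11) and Lin52 (-0.10) had the smallest p-values there.

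Of 9 chromatin partners of pocket proteins, 7 had lower means in Elektra (median log2 change -0.08, and -0.17 without Elektra replicate 3 or -0.05 without Elektra replicate 2). Suv39h1 encodes a histone H3 lysine methyltransferase that binds the retinoblastoma protein. It had 4.88, 4.50, 5.18 and 4.51 in Elektra arrays 1 to 4, against 5.08, 5.21, 5.38 and 5.26 in WT arrays 1 to 4. Elektra replicate 3 overlapped the WT range, and the other 3 Elektra arrays lay below it. For Suv39h1 the log2 change was -0.47 (limma adjusted p = 0.884). The deacetylase gene Hdac2 (-0.35), Arid4b (-0.24) and the corepressor gene Sin3a (-0.20) had log2 changes of the same sign.

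E2F target genes of S phase entry were split, with 11 of 25 higher in Elektra, 14 lower, and the median log2 change at -0.05. Without Elektra replicate 2, 23 of the 25 were higher with a median of 0.18, and without Elektra replicate 3, 5 of 25 were higher with a median of -0.14. The list's mean level was 4.72, 4.19, 5.12 and 5.07 in Elektra arrays 1 to 4, against 4.55, 4.79, 4.82 and 4.92 in WT arrays 1 to 4. Elektra replicate 2 was the lowest and Elektra replicates 3 and 4 were the highest, so that the direction depends on which arrays are included. It also turned without WT replicate 4, where 13 were higher and 12 lower with a median of 0.01. Elektra replicate 2 was also the lowest array for Rbl1, itself known as an E2F target. This was not particular to E2F targets. It was the lowest array for the mean of the E2F factors, the other G1/S regulators, the MuvB genes and the chromatin partners too, though not of the CDK inhibitors or the G2/M genes. The part of this array in these values was not tested.

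Cdc6, a licensing factor for replication origins, had the smallest p of that list. It had 4.02, 4.00, 4.34 and 4.74 in Elektra arrays 1 to 4, against 3.82, 3.89, 3.70 and 3.65 in WT arrays 1 to 4 (log2). The 4 Elektra arrays lay above all WT arrays, where 3.23% of all genes had separate groups in either direction. The log2 change was 0.51 (limma adjusted p = 0.884). Ccna2, the cyclin A2 gene, was 4.82 ± 0.37 in Elektra and 4.42 ± 0.15 in WT, whereas Pola1 (-0.40) and Slbp (-0.13) had negative log2 changes. Of 16 genes of G2/M and mitosis, 13 had higher means in Elektra (median log2 change 0.12, or 0.01 without Elektra replicate 4 and 0.05 without WT replicate 1). Ccnb2 (0.39), Aurka (0.26), Tpx2 (0.27) and Bub1 (-0.35) had the smallest p-values of that list.

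**Figure D5:**
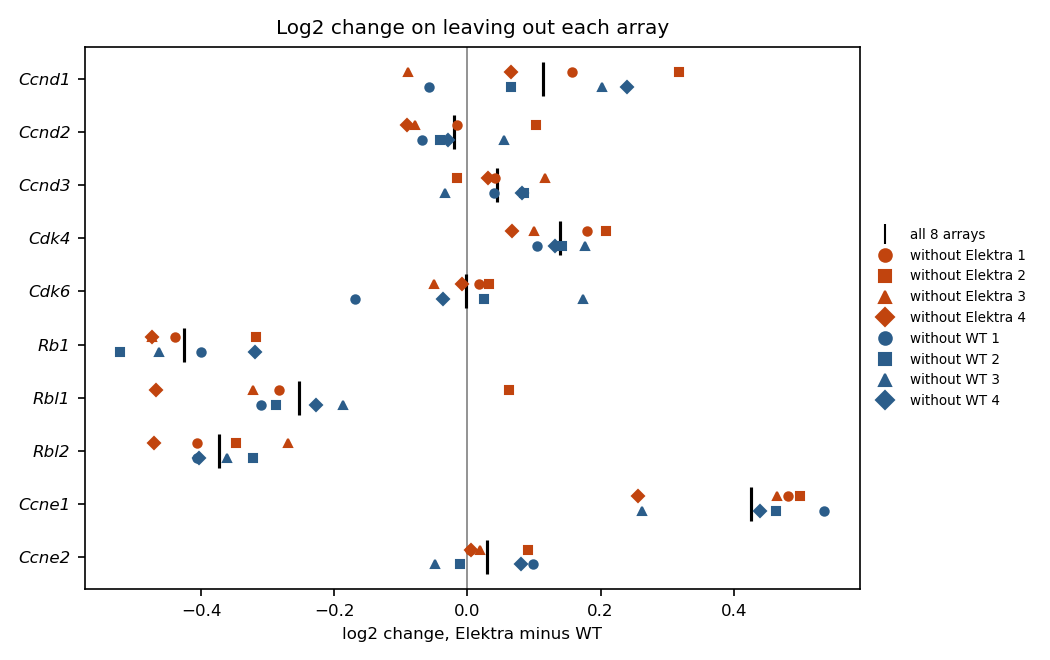
Log2 change, Elektra minus WT, of each gene with all 8 arrays (black bar) and on leaving out 1 Elektra array (orange, upper row) or 1 WT array (blue, lower row), with marker shape giving the replicate left out. Cdk4, Rb1, Rbl2 and Ccne1 keep their sign throughout, and Rbl1 moves from negative to 0.06 without Elektra replicate 2.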

How the data were processed

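The authors deposited log2 values. Per the submitters' processing notes, RMA was run in version 1.4 of Affymetrix Expression Console. The arrays were made from 100 to 200 pg of RNA amplified with 12 PCR cycles, per the labels' protocols. The annotated table, with 34390 probe sets, supplied values and symbols, of which 31872 had 1 symbol, 1 had several and 2517 had none. It also holds the authors' signed fold changes, a score that is negative where Elektra is lower, and the authors' p-values, which a recomputed pooled-variance test matched to within 2.88e-12. Those values were used only for that check. The second deposited table, with 41345 probe sets, was used as an alternative, and differed for the members by at most 0.12 log2. No annotation build was named in the sources used here.

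Each gene was represented by its brightest probe set by mean over all arrays, without a filter on dim ones, and 24 symbols turned into spreadsheet dates stayed unnamed. The genotypes were compared in R 4.3.3 with limma 3.58.1 (lmFit, then eBayes). Tests were two-sided, and p-values were adjusted by Benjamini-Hochberg across 30918 genes. The p-values set the difference between genotypes against the spread among pooled samples of a genotype, moderated over all genes in limma. As the number of animals is not settled, whether samples of a genotype share mice is not settled either. The number of arrays limits the precision. The members and gene lists were chosen with earlier results of these data known. All 10 members are named, with up to 4 genes of smallest p per pathway list, markers, Slfn2 and the nearest gene in pattern to each member. Alternatives were the second table, quantile normalisation, median centring, leaving out probe sets under percentile 40, averaging the probe sets of a gene, every probe set, array weights, a robust prior with an intensity trend, 2 kinds of block, the pooled-variance test, an adjusted p of 0.10, and leaving out each array.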

Additional observations from a re-analysis of the deposited data

Results flagged for a closer look

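In 24 groups of 4 arrays (10 genes and the pair of dim Rb1 probe sets, by genotype), 2 held an array whose gap to the nearest other array took up more of the group's range than Dixon's 95% critical value for 4 values allows. Chance gives about 1 such group in 20. For Ccne1, Elektra replicate 4 had a log2 value of 4.24, against 3.61 in the next Elektra array, a ratio of 0.856. For Rb1 probe set 17308600, WT replicate 1 had 2.98, against 2.05 in the next WT array, a ratio of 0.839.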

How the results depend on the processing

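Across 21 alternatives, 0 members and 0 genes were called in limma, the lowest adjusted p being 0.704 for a member and 0.0882 for any gene (without WT replicate 4). The pooled-variance test also gave 0 genes, with 1572 at an unadjusted p under 0.05. The 3 Rb1 probe sets gave 0 calls in 18 alternatives, and 17308568 has no value with dim probe sets left out. Cdk4, Rb1, Rbl2 and Ccne1 kept their sign in all 21. The sign could not change with the blocks, the intensity trend, the pooled-variance test or the adjusted p of 0.10. Leaving out dim probe sets and fitting every probe set also left the members' log2 changes as they were, and averaging probe sets could alter Rb1 alone. Of the 21 alternatives, Rb1 had an unadjusted p under 0.05 in 17, Rbl2 in 19 and Ccne1 in 4. The adjusted p of 0.10 left the unadjusted p of the main fit unchanged, and the alternatives reuse the same arrays. These counts are therefore not independent results. On leaving out 1 array, the log2 change ranged from -0.0889 to 0.318 for Ccnd1, -0.0901 to 0.103 for Ccnd2, -0.0333 to 0.117 for Ccnd3, -0.170 to 0.174 for Cdk6, -0.468 to 0.0623 for Rbl1, -0.0486 to 0.0986 for Ccne2 and -0.289 to 0.0791 for Rb1 probe set 17308600. Signs also turned with quantile normalisation for Ccnd2 (0.00628) and Cdk6 (0.0344), with array weights for Ccnd2 (0.0476) and Ccnd3 (-0.000662), with the second table for Cdk6 (9.39e-05) and with median centring for Ccne2 (-0.0104). Quantile normalisation without Elektra replicate 2 turned Ccnd2 (0.106), Ccnd3 (-0.00179), Cdk6 (0.0315) and Rbl1 (0.0577). The cause was not tested.

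Same-numbered arrays had correlations of deviations of 0.135, 0.0106, 0.134 and 0.0550, against highest values of 0.1205, 0.0845, 0.142 and 0.0380 between each Elektra array and WT arrays of another number. The same-number value was the higher for numbers 1 and 4, and 2 of the 4 were under 0.1, so the numbers were not taken to pair the samples. With the replicate number as a block, 0 genes and 0 members were called, 1880 genes had an unadjusted p under 0.05, and Rb1 had an unadjusted limma p of 0.00618 (adjusted p = 0.769). The list medians without single arrays were added after seeing the data. With 4 arrays per group, the 95% intervals of 8 genes include 0, and those of Rb1 and Rbl2 exclude it only before adjustment.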
